A study of Arabidopsis with 12 samples.

Results

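The response of ein3 eil1 seedlings to methyl jasmonate (MeJA) was described from 4 of the 12 arrays of the series, chosen by their labels: the 2 arrays of ein3 eil1 seedlings given MeJA and the 2 of ein3 eil1 seedlings given the mock treatment. All probe sets other than the array's own controls were used, 22746 of 22810, and these made 22589 features, of which 13356 were named genes. The ein3 eil1 plants carry mutations in both EIN3 and EIL1 in the Columbia background. Whole seedlings grown for 7 days on MS medium under long days at 23 °C were given 100 µM MeJA in the treated groups, or ethanol in the mock groups, for 4 h. Col-0, the wild type of the same background, and coi1-2, a mutant of the jasmonate receptor gene COI1, had the same treatments with 2 arrays per group and were used for comparison. The design asks how much of the jasmonate-regulated expression needs COI1, and how much needs the EIN3 and EIL1 pair. The SEs and p-values rest on the spread between the arrays of a group, pooled over all 12 arrays, those of Col-0 and coi1-2 included. The labels do not say whether the 2 arrays of a group came from separate cultures, so this spread may be technical.

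Jasmonate is a lipid hormone of wounding and defence. Its active conjugate is bound by the F-box protein COI1 together with JAZ repressors, and loss of the repressors frees MYC factors and other regulators. EIN3 and EIL1 are the main transcription factors of ethylene signalling, and they are also held back by JAZ proteins, so that jasmonate and ethylene act together on defensin genes through ERF factors. Methyl jasmonate is converted to the active hormone in the plant and is commonly used to trigger the response.

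EIN3, the gene mutated in these plants, was at log2 levels of 5.95 and 6.25 in the ein3 eil1 mock arrays and 6.03 and 5.91 in the ein3 eil1 MeJA arrays. In the 8 other arrays it lay between 9.26 and 9.59, so that the groups did not overlap. The mock difference between ein3 eil1 and Col-0 was -3.44 ± 0.14 (SE, log2; limma adjusted p = 3.92e-08). EIL1 and COI1 were not analysed here. The 2 ein3 eil1 mock arrays correlated at 0.9955 over all features and the 2 ein3 eil1 MeJA arrays at 0.9898. MeJA replicate 2 correlated as closely with mock replicate 2 (0.9898) as with its own replicate, whereas MeJA replicate 1 stood further from the mock arrays (0.9855 and 0.9843). The results are therefore given below with and without single arrays for most of the named calls that leaving one out ended.

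MeJA changed the level of 969 of 22589 features in ein3 eil1 seedlings at an adjusted p under 0.05 in limma (Benjamini-Hochberg over all features), and 3635 had an unadjusted p under 0.05. The 379 features called higher were 1.68% of those tested and the 590 called lower were 2.61%. With the 4 ein3 eil1 arrays fitted alone, without the spread of the other groups, 386 features were called. In each of the 969, both MeJA arrays lay beyond both mock arrays. The calls were made on these same arrays, so this adds no support, and the share over all features was not counted. Most changes were modest: 133 features rose and 212 fell at least 2-fold, 16 rose and 10 fell at least 4-fold, and 624 calls were under 2-fold. The median log2 change was 0.84 among those called higher and -0.87 among those called lower, beside 0.01 over all features and a median SE of 0.15. The smallest called change was 0.45, and a change of 2-fold or more could miss the threshold where replicates differed. Nearest to it, AT2G34140 was called at 0.63 ± 0.16 (adjusted p = 0.0498) while AT2G37540, at -1.35 ± 0.35, was not (adjusted p = 0.0503). The change of AT2G34140 depended on single arrays, at 0.42 without MeJA replicate 2 and 0.75 without mock replicate 2. Of the calls, 243 (107 higher and 136 lower) were also made in each of the 4 fits that left out 1 ein3 eil1 array. The count of calls was 289 without mock replicate 1, 442 without mock replicate 2, 647 without MeJA replicate 1 and 1373 without MeJA replicate 2. With each array centred on its median, which moved the median change of all features to 0.10, 537 features were called higher and 436 lower, so that the larger number on the lower side did not hold under that scaling. Fewer cells of a type and less RNA per cell cannot be told apart in RNA of whole seedlings.

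The named gene that rose most was AT1G75960, at 4.65 and 4.77 in the mock arrays and 7.80 and 7.59 in the MeJA arrays. This was a change of 2.99 ± 0.14 (SE, log2; limma adjusted p = 4.14e-07), or 7.95-fold, though its mock values were below the array medians, so the fold is less certain than that of a brighter gene. AT4G17470 went from 7.88 and 8.06 to 10.78 and 10.34, a change of 2.59 ± 0.20. The mock and MeJA arrays of both genes were far apart compared with the distance between replicates.

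JAL23, one of the jacalin-related lectins, proteins that bind carbohydrates, had low values of 3.97 and 3.88 in the mock arrays and 6.66 and 6.31 in the MeJA arrays (change 2.56 ± 0.14, limma adjusted p = 2.18e-06). Its mock values too were below the array medians, which makes the fold of 5.88 less certain. GSTU25, a tau class glutathione S-transferase, was at 6.20 and 6.45 and then at 8.02 and 9.0 (2.19 ± 0.25), with MeJA replicates further apart than its mock replicates. SUFE2, an activator of the cysteine desulfurase that supplies sulfur for iron-sulfur clusters, went from 7.81 and 7.65 to 9.67 and 9.47 (1.84 ± 0.16). UGT76E12, a glucosyltransferase, went from 8.04 and 8.20 to 9.80 and 10.24 (1.90 ± 0.27). The other genes among the 12 highest carry locus codes only: AT3G28220, AT4G24350, AT1G54020, AT1G31550, AT4G15660 and AT3G28270 rose by 2.31, 2.2, 2.17, 2.1, 1.90 and 1.79 on the log2 scale. The mock values of AT4G15660 were also below the array medians. The calls of all 12 held when any 1 of the 4 ein3 eil1 arrays was left out.

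**Figure D1:**
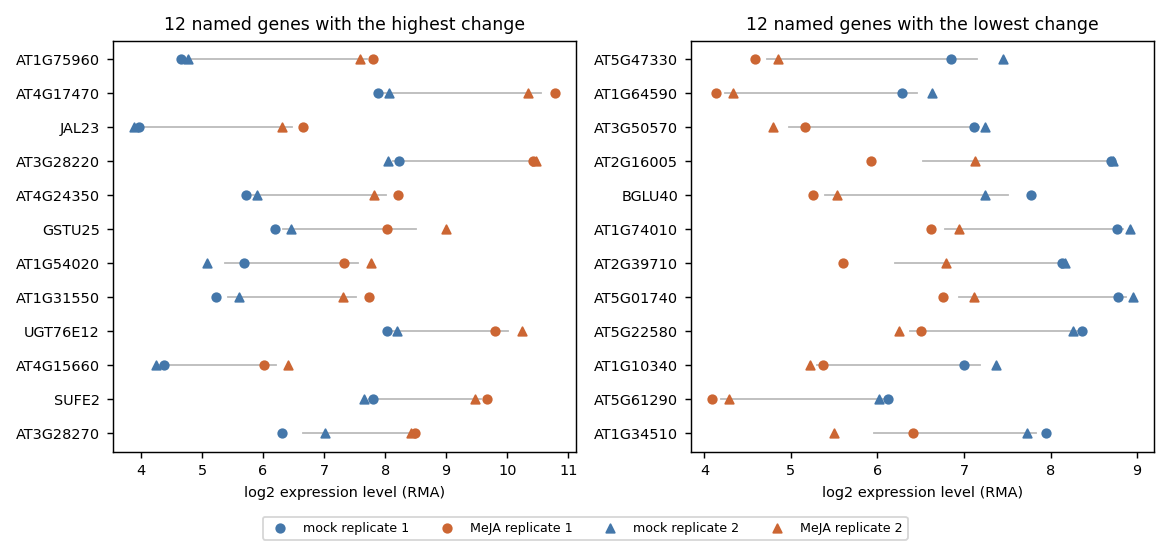
Log2 expression level of the 12 named genes with the highest (left) and the 12 with the lowest (right) change with MeJA in ein3 eil1, 1 gene per line. Points are single arrays (blue mock, orange MeJA, circles replicate 1, triangles replicate 2) and the grey line joins the group means. In each of the 24 genes both MeJA arrays lie on one side of both mock arrays, which was a condition of their choice.

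Among named genes AT5G47330 fell most, from 6.85 and 7.46 in the mock arrays to 4.58 and 4.85 with MeJA, a change of -2.44 ± 0.31 (limma adjusted p = 0.000839). AT1G64590 fell from 6.28 and 6.63 to 4.14 and 4.33 (-2.22 ± 0.17) and AT3G50570 from 7.11 and 7.24 to 5.16 and 4.79 (-2.2 ± 0.29). In these 3 genes the MeJA values were below the array medians, so their folds are less certain than those of brighter genes. AT2G16005 fell from 8.70 and 8.72 to 5.92 and 7.13 (-2.18 ± 0.29), and its 2 MeJA arrays differed from each other by more than its mock arrays did. BGLU40, a member of the beta-glucosidase family, which releases glucose from glycosides, fell from 7.77 and 7.24 to 5.25 and 5.53 (-2.12 ± 0.22). AT1G74010, AT2G39710, AT5G01740, AT5G22580, AT1G10340, AT5G61290 and AT1G34510 had changes of -2.06, -1.95, -1.93, -1.93, -1.89, -1.88 and -1.88. The MeJA values of AT5G61290 were also below the array medians. AT1G34510 was the 1 gene of the 24 whose call was lost without single arrays, with adjusted p = 0.0708 without MeJA replicate 2, 0.132 without mock replicate 1 and 0.0757 without mock replicate 2 (limma).

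Of the named genes, 1547 carry a symbol in the annotation, and 91 of these were called, 42 higher and 49 lower. Over all features 1.68% were called higher and 2.61% lower. The 91 were taken as a whole and most were grouped by the known role of their products after their values had been seen, so the groups describe the calls and support nothing beyond them.

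Enzymes that attach sugars or glutathione to small molecules made up 11 of the 42 genes with a symbol that were called higher. The families here were taken by symbol, so members known by locus code only were not counted. In the 47 genes with a UDP-glycosyltransferase symbol, 8 were called higher and 0 lower, beside 1.68% and 2.61% of all features. These enzymes transfer sugars to hormones, flavonoids and foreign compounds. The median change of the 47 was 0.10, and 39 were not called. UGT73C1 was at 5.15 and 5.49 in the mock arrays and 6.61 and 6.93 in the MeJA arrays (1.46 ± 0.19). UGT73B4 was at 6.0 and 6.70 and then at 7.28 and 8.09 (1.33 ± 0.25). UGT74D1, which can glucosylate auxin, was at 7.63 and 7.67 and then at 9.06 and 8.62 (1.19 ± 0.21). UGT73B5, UGT76E11, UGT76B1 and UGT73B1 had changes of 1.04, 0.99, 0.97 and 0.71. Of the 14 glutathione S-transferases, 3 were called higher and 0 lower, with a median of 0.16: GSTU25, GSTU22 (1.12 ± 0.28) and GSTU20, which went from 9.96 and 10.01 to 11.04 and 10.99 (1.02 ± 0.17). Neighbouring members of these families are similar in sequence, and a probe set may read more than 1 of them. The calls of UGT76E12, UGT73C1 and GSTU25 held without any 1 array. Without mock replicate 1 the other 8 of the 11 missed the threshold in limma (adjusted p = 0.0588 to 0.263), without mock replicate 2 UGT76B1, GSTU22, UGT73B5 and UGT73B1 did (0.0615 to 0.149), and without MeJA replicate 2 UGT76E11, GSTU22, UGT73B5 and UGT73B1 did (0.0914 to 0.161).

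Of the called genes with a symbol, 7 have products in sulfate assimilation or redox control, and these 7 were called higher, 3 of them whichever array was left out. They were gathered from the calls, and the members of these pathways that were not called were not counted. APS3, an ATP sulfurylase that takes the first step of sulfate assimilation, went from 8.06 and 8.15 to 9.84 and 9.73, a change of 1.68 ± 0.14 (limma adjusted p = 6.41e-05). SIR, the sulfite reductase of the same pathway, went from 10.05 and 9.96 to 11.02 and 10.87 (0.94 ± 0.14). The replicates of both genes lay closer to each other than to the other treatment by a wide margin. GRX480, a glutaredoxin that acts with TGA transcription factors, was at 7.87 and 8.69 and then at 9.16 and 9.80 (1.21 ± 0.27). MSRB6, a methionine sulfoxide reductase, SAPX, the ascorbate peroxidase of the stroma, and GR1, a glutathione reductase, rose by 0.69, 0.69 and 0.66. GR1 was the 1 measured gene of the 9 listed for glutathione and ascorbate. The calls of APS3, SIR and SUFE2 held without any 1 array. The other 4 missed the threshold in limma without mock replicate 1 (adjusted p = 0.055 to 0.247), GR1, MSRB6 and SAPX without MeJA replicate 1 (0.0506 to 0.151), MSRB6 and GRX480 without MeJA replicate 2 (0.0555 to 0.106), and MSRB6 and SAPX without mock replicate 2 (0.154 to 0.244).

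Genes for auxin conjugation changed in both directions. IAGLU, which glucosylates the auxin indole-3-acetic acid, went from 6.35 and 6.76 to 7.78 and 8.20 (1.44 ± 0.21). GH3.3, which joins auxin to amino acids, went from 8.17 and 8.04 to 9.05 and 9.55 (1.2 ± 0.17). These 2 rose. GH3.17, of the same enzyme family, fell from 8.21 and 8.06 to 6.88 and 6.89 (-1.25 ± 0.16), and WES1, also a GH3 enzyme, fell from 7.99 and 8.10 to 6.58 and 6.74 (-1.38 ± 0.18). These 4 calls held without any 1 array. Of the 14 genes of the auxin response list only 4 were measured. Of these 1 was called higher and 2 lower, beside 1.68% and 2.61% of all features, and IAA29 was at -0.20 (limma adjusted p = 0.549).

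Of 18 expansin genes measured, whose products loosen the cell wall during growth, 5 were called lower and 1 higher, with a family median of -0.19, beside 2.61% lower and 1.68% higher of all features. Of 9 xyloglucan endotransglucosylase genes (XTH), whose products cut and rejoin wall xyloglucan, 4 were called lower and 0 higher, with a median of -0.75. Members of both families known by locus code only were not counted. EXLA2 was at 6.38 and 6.64 in the mock arrays and 4.80 and 5.19 in the MeJA arrays (-1.52 ± 0.19), and EXLA1 at 10.02 and 9.94 and then 8.21 and 8.84 (-1.46 ± 0.17). EXPA4 went from 8.64 and 8.56 to 7.52 and 7.15 (-1.26 ± 0.15). In these 3 expansins each MeJA value was at least 1 log2 unit below each mock value. EXPA8 was at 6.54 and 5.46 and then at 4.54 and 4.45 (-1.50 ± 0.26), with mock replicates that differed by about as much as the treatments did at their nearest. Its call was lost when the 4 ein3 eil1 arrays were fitted alone (limma adjusted p = 0.074). XTH16 went from 9.47 and 9.17 to 8.18 and 7.98 (-1.24 ± 0.17), and XTH33, XTH18 and XTH21 had changes of -1.25, -0.76 and -0.75. EXPA7, a root hair expansin, was at -0.88, and EXPA9 was the expansin called higher, at 0.62. The calls of EXPA4, EXPA8, EXLA1, EXLA2 and XTH16 held without any 1 array. In limma, EXPA7, EXPA9, XTH21 and XTH18 missed the threshold without MeJA replicate 1 (adjusted p = 0.0534 to 0.205), EXPA7, XTH33, XTH21 and XTH18 without mock replicate 1 (0.076 to 0.205), and EXPA9 and XTH18 without mock replicate 2 (0.138 to 0.296).

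Other called genes of the wall and of secreted proteins were split 3 higher to 7 lower. They too were gathered from the calls, without a count of those not called. BGLU40 fell most. PRX52, a secreted peroxidase linked to lignin, was at 7.36 and 6.77 and then at 6.07 and 5.04 (-1.51 ± 0.27). EXO, a secreted protein of brassinosteroid-promoted growth, went from 11.89 and 11.76 to 10.80 and 11.11 (-0.87 ± 0.14). ARA12, a subtilisin-type protease, GH9C1, an endoglucanase, CSLC04, a glucan synthase of xyloglucan, and SKU5, a membrane-anchored glycoprotein of directional growth, had changes of -0.93, -0.85, -0.75 and -0.74. TBL37, of a family that acetylates wall polymers, was at 0.77, CSLC5 at 0.70 and TBL26 at 0.58. The call of BGLU40 held without any 1 array, while the other 9 missed the threshold in limma without mock replicate 1 (adjusted p = 0.0613 to 0.163). TBL37, TBL26 and CSLC5 did so without MeJA replicate 1 (0.0536 to 0.169), CSLC5 and GH9C1 without MeJA replicate 2 (0.0965 to 0.15), and TBL37, CSLC04, TBL26, CSLC5 and GH9C1 without mock replicate 2 (0.054 to 0.315). GH9C1 also missed it after quantile normalization (0.0769) and after centring the arrays (0.056).

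THE1, a receptor kinase that monitors the wall, fell from 8.34 and 8.37 to 7.58 and 7.29 (-0.92 ± 0.15), and its call held without any 1 array. FER, a receptor kinase of the same family that binds RALF peptides, was at 9.97 and 10.09 and then at 9.42 and 9.50 (-0.56 ± 0.14). RALFL33, a RALF peptide gene, had a change of -0.57, the cytoplasmic kinases BIK1 and APK1A -0.54 and -0.52, and the peptide gene RALFL27 0.65. The calls of these 5 were lost in limma without MeJA replicate 1 (adjusted p = 0.101 to 0.152), without mock replicate 1 (0.13 to 0.276) and without mock replicate 2 (0.0644 to 0.229), and those of RALFL27, FER and APK1A without MeJA replicate 2 (0.0549 to 0.077). Centring the arrays on their medians also ended the calls of FER, RALFL33, BIK1 and APK1A (0.0569 to 0.107), and quantile normalization that of APK1A (0.086).

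The 5 called genes grouped under the cytoskeleton were lower. They were gathered from the calls, and genes of this role that were not called were not counted. ACT11, an actin, was at 6.47 and 6.10 and then at 5.47 and 5.43 (-0.84 ± 0.16). PLIM2b, which bundles actin filaments, was at 5.87 and 5.62 and then at 4.85 and 4.97 (-0.83 ± 0.14). SP1L4 and ATMAP65-6, which belong to families of microtubule-binding proteins, and TRM15 had changes of -0.92, -0.59 and -0.54. None of these 5 calls held without mock replicate 1 (limma adjusted p = 0.0661 to 0.169). ATMAP65-6, TRM15 and SP1L4 also missed the threshold without MeJA replicate 1 (0.0544 to 0.159) and without mock replicate 2 (0.108 to 0.199), and ATMAP65-6 and TRM15 without MeJA replicate 2 (0.0555 to 0.0575), after quantile normalization (0.0889 and 0.0562) and after centring (0.0969 and 0.0845).

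The 6 called genes grouped under transcription and chromatin were lower. They were gathered from the calls, and this says nothing of such genes that were not called. Of 6 WRKY genes measured, for example, 5 were not called. HIS1-3, a linker histone linked to drought, was at 4.93 and 5.36 and then at 3.80 and 3.61 (-1.44 ± 0.15), and its call held without any 1 array. bZIP44, a leucine zipper factor, was at 7.60 and 7.69 and then at 5.62 and 6.68 (-1.50 ± 0.25), with MeJA replicates further apart than its mock replicates. TCP15, a factor of organ growth, WRKY47, BZIP61 and UPB1, a root growth regulator that represses peroxidase genes, had changes of -0.89, -0.85, -0.78 and -0.76. The 5 apart from HIS1-3 missed the threshold in limma without mock replicate 1 (adjusted p = 0.05 to 0.197, each above 0.05 before rounding), WRKY47 and UPB1 without MeJA replicate 1 (0.112 to 0.122), and bZIP44 without mock replicate 2 (0.0504).

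Outside these groups, 32 called genes had a symbol, and JAL23, ATC, scpl30, OCT5 and PDF2.5 held without any 1 array. OCT5, an organic cation and carnitine transporter, was at 6.56 and 6.57 and then at 8.01 and 8.0 (1.44 ± 0.16). scpl30, a serine carboxypeptidase-like gene, was at 5.94 and 6.09 and then at 7.61 and 7.19 (1.38 ± 0.20). PDF2.5, of the defensin family, fell from 5.49 and 5.33 to 4.61 and 4.24 (-0.99 ± 0.15). UPP, which salvages uracil, was at 0.79, PYRB, the aspartate transcarbamoylase of pyrimidine synthesis, at 0.64, and AAH, which acts in purine breakdown, at 0.48. OSM34, an osmotin-like protein, and COR15A, a chloroplast protein of cold tolerance, had changes of 1.18 and 1.11. SWEET4, a sugar transporter, was at 0.97 and SWEET10, of the same family, at -0.91. The calls of the other 27 were each lost without at least 1 array. In limma 25 of the 32 missed the threshold without mock replicate 1 (adjusted p = 0.0512 to 0.366), among them OSM34, COR15A, UPP, PYRB and AAH, 23 without mock replicate 2 (0.054 to 0.308), among them SWEET4, SWEET10, PYRB and AAH, 17 without MeJA replicate 1 (0.0598 to 0.266), and 13 without MeJA replicate 2 (0.0763 to 0.149). SWEET10 also missed it after quantile normalization (0.0525).

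**Figure D2:**
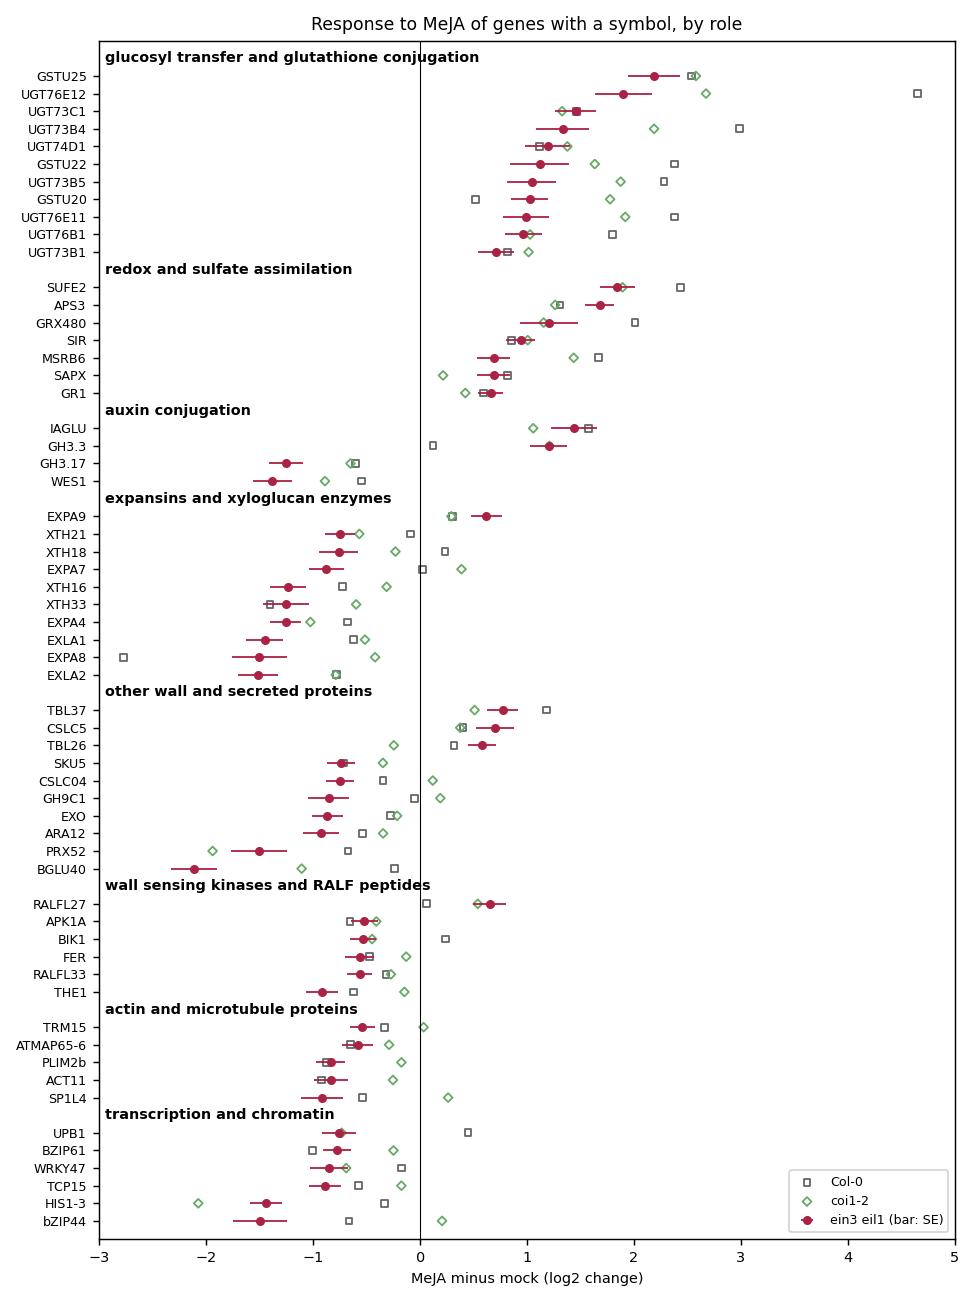
Change with MeJA (log2, MeJA minus mock) of 59 called genes with a symbol, grouped by role, in ein3 eil1 (red points, bars are the SE of limma's fit), Col-0 (grey squares) and coi1-2 (green diamonds). The 11 transferase genes lie between 0.71 and 2.19 in ein3 eil1, and 9 of the 10 expansin and xyloglucan genes lie below 0.

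Few genes of the jasmonate and ethylene pathways themselves carried a name in the annotation used here, and the 12 listed JAZ repressor genes were not analysed here. Of the 10 genes listed for jasmonate breakdown 4 were measured, and 0 of these were called at an adjusted p under 0.05. AT2G38240 was at 11.14 and 11.08 in the mock arrays and 11.99 and 11.71 in the MeJA arrays (0.74 ± 0.22, limma adjusted p = 0.0836). JRG21, a jasmonate-regulated oxygenase, was at 10.94 and 11.04 and then at 11.66 and 11.77 (0.72 ± 0.29, adjusted p = 0.229). AT5G05600 was at 11.37 and 11.23 and then at 12.003 and 11.87 (0.63 ± 0.18, adjusted p = 0.071). The treatments did not overlap in these 3 genes, but their changes did not pass, and after centring the arrays AT5G05600 (adjusted p = 0.0428) and AT2G38240 (0.0456) did. AT3G11180, the other gene measured, was at 0.21 (adjusted p = 0.433). The median change of the 4 was 0.68 in ein3 eil1, 2.39 in Col-0 and 1.43 in coi1-2. Under mock, ein3 eil1 was above Col-0 by 2.12 ± 0.29 for JRG21, 1.94 ± 0.22 for AT2G38240 and 0.81 ± 0.18 for AT5G05600 (adjusted p = 0.000397, 7.7e-05 and 0.0111), while AT3G11180 was at -0.08 ± 0.12 (adjusted p = 0.79).

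Of the 2 measured jasmonate synthesis genes, 0 were called. OPCL1, which activates precursors for the chain shortening of jasmonate synthesis, was at 8.03 and 8.0 and then at 7.84 and 8.16 (-0.01 ± 0.14). In Col-0 it rose from 6.64 and 6.88 to 8.13 and 8.04 (1.33 ± 0.14, limma adjusted p = 7.85e-05). Under mock, ein3 eil1 was above Col-0 in OPCL1 by 1.26 ± 0.14 (adjusted p = 9.91e-05). With MeJA the difference was -0.09 ± 0.14 (adjusted p = 0.854). JMT, which methylates jasmonic acid, was at 0.47 (adjusted p = 0.107). MYC3 and MYC4, factors of the MYC branch, were at -0.13 and 0.24 (adjusted p = 0.693 and 0.577). In the branch shared by jasmonate and ethylene, PDF1.2, the defensin gene used as its marker, was at 7.95 and 8.79 in mock and 8.30 and 9.95 with MeJA (0.76 ± 0.41, adjusted p = 0.406). The treatments overlapped, and the change depended on which MeJA array was kept, at -0.07 without MeJA replicate 2 and 1.58 without MeJA replicate 1. All 4 values lay above those of the 4 Col-0 arrays, which were between 3.66 and 4.85. PDF1.2b was at 0.15 (adjusted p = 0.885), and the 2 defensins are similar enough that their probe sets may share signal. THI2.1, a thionin, was the 1 of 4 measured genes of this branch called higher (0.93 ± 0.21, adjusted p = 0.0266), from 3.36 and 3.65 to 4.77 and 4.09. All its values were below the array medians, and the call was lost without MeJA replicate 1, mock replicate 1 or mock replicate 2 (0.0692 to 0.225).

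Among ethylene pathway genes 2 were measured by name, EIN3 and RTE1, which acts on an ethylene receptor, and neither was called (-0.13 and 0.30, limma adjusted p = 0.735 and 0.292). BCAT4, the first step of methionine chain elongation for aliphatic glucosinolates, was called at 0.59 (adjusted p = 0.0337), a call lost when any 1 of the 4 arrays was left out (0.0754 to 0.265), and AT2G31790 of the same list was at 0.21. The indole glucosinolate and tryptophan list had 0 calls of 2: AT2G04400 was at 0.48 (adjusted p = 0.114, or 0.0429 after centring the arrays) and UGT74B1 at 0.07. Of 5 genes matched to the anthocyanin and flavonoid list, 0 were called, with changes of 0.19 to 0.42. CHI among them was matched by symbol to AT2G43570, a chitinase gene, and is not the flavonoid enzyme chalcone isomerase. Of 5 stress and wound regulators, 0 were called, with changes from -0.60 for WRKY6 to 0.76 for CML38, a calmodulin-like protein. Calls of 1 higher and 1 lower in 23 cytochrome P450 genes (CYP71B37 and CYP71B29), 1 lower in 6 WRKY genes (WRKY47), 1 lower in 20 beta-glucosidases (BGLU40) and 1 higher in 4 jacalin-related lectins (JAL23) were made against background shares of 1.68% higher and 2.61% lower. The calls of CYP71B37 and CYP71B29 were lost when any 1 of the 4 arrays was left out (0.0855 to 0.215 and 0.0647 to 0.222), that of CYP71B29 also after quantile normalization (0.0576) and centring (0.0847), and that of WRKY47 without MeJA replicate 1 (0.122) or mock replicate 1 (0.185). No call was made in 7 calmodulin-like genes, in 1 heat shock gene or in 69 plastid-encoded genes, whose median was 0.03. The P450, WRKY, beta-glucosidase, lectin, calmodulin-like and heat shock families were taken by symbol, without members known by locus code only.

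The labelled material, whole seedlings, was checked against markers of its organs. The 4 photosystem and Rubisco genes measured, which mark green tissue, had changes between -0.21 and 0.13 and 0 calls. PYK10, a root marker of the endoplasmic reticulum bodies, was at 12.49 and 12.52 in mock and 12.31 and 12.43 with MeJA (-0.14 ± 0.13, limma adjusted p = 0.681), and EXPA7, the other of the 2 root markers measured, was called lower as given above. The photosystem genes and PYK10 were far above the array medians in every array. The 1 pollen marker measured, AT5G45880, was below the medians, between 4.22 and 4.76.

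Col-0 seedlings answered the same treatment with 1029 features called higher (4.56%) and 693 lower (3.07%), and coi1-2 seedlings with 350 higher (1.55%) and 228 lower (1.01%). The ein3 eil1 response shares no array with either. Of the 379 features called higher in ein3 eil1, 243 were higher in Col-0 too, which is 64.1% of the ein3 eil1 list and 23.6% of the Col-0 list, and 4 were lower there. Of the 590 called lower, 199 were lower in Col-0, 33.7% of the ein3 eil1 list and 28.7% of the Col-0 list, and 13 were higher. With coi1-2, 167 were shared on the higher side (44.1% and 47.7% of the 2 lists) and 85 on the lower side (14.4% and 37.3%). The features called higher in ein3 eil1 had a median change of 0.88 in Col-0 and 0.56 in coi1-2, and those called lower had -0.40 and -0.28. Those called higher in Col-0 had a median of 0.90 in Col-0 and 0.31 in ein3 eil1. Over all features the changes correlated at r = 0.402 (Spearman 0.19) with Col-0 and r = 0.421 (Spearman 0.26) with coi1-2, as a description over features that share the same arrays.

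**Figure D3:**
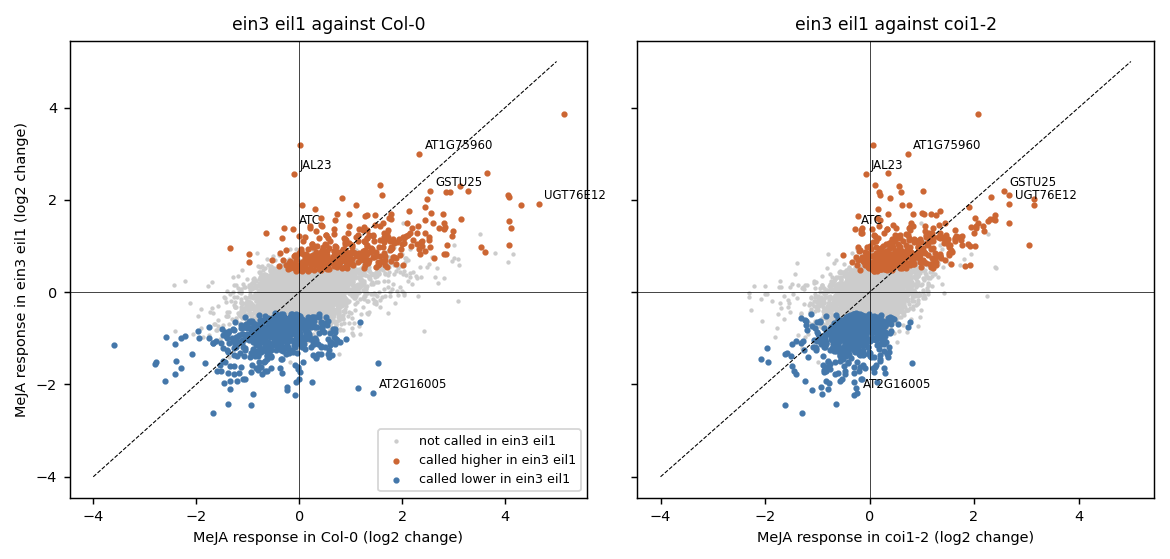
Change with MeJA in ein3 eil1 (vertical, log2) against the change in Col-0 (left) and in coi1-2 (right), 1 point per feature, with features called higher in orange and lower in blue and the dashed line marking equal change. Many features called higher in ein3 eil1 lie to the right of the line in the left panel, where the Col-0 change was larger, while JAL23 and ATC lie near 0 on the horizontal axis of both panels.

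The test of the difference between responses was passed by 409 features against Col-0 (3094 at an unadjusted p under 0.05). In 96 of them (0.425%) the ein3 eil1 change was above that of Col-0 and in 313 (1.39%) below it. After centring the arrays on their medians 153 were above and 255 below. Against coi1-2, 100 features passed (1913 unadjusted), 49 above (0.217%) and 51 below (0.226%). These counts ran from 127 (without ein3 eil1 mock replicate 1) to 1040 (without ein3 eil1 MeJA replicate 2) for Col-0, and from 16 (without coi1-2 MeJA replicate 1) to 181 (without ein3 eil1 MeJA replicate 2) for coi1-2, when 1 array was left out.

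JAL23 had values of 3.43 to 3.66 in the Col-0 arrays and 3.33 to 3.45 in the coi1-2 arrays, under either treatment, and 6.66 and 6.31 in the ein3 eil1 MeJA arrays. Its change exceeded that of Col-0 by 2.66 ± 0.20 and that of coi1-2 by 2.63 ± 0.20 (limma adjusted p = 0.00012 and 0.000134), and both calls held without any 1 of the arrays compared. An unnamed probe set, singled out after its values were seen, had the same pattern: it was at 3.57 and 3.63 in ein3 eil1 mock, 6.70 and 6.87 with MeJA, and 3.45 to 3.72 in the 8 other arrays.

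In AT1G64590 and AT5G61290 the ein3 eil1 mock arrays were the ones that stood apart. AT1G64590 was at 6.28 and 6.63 there, at 4.14 and 4.33 in ein3 eil1 with MeJA, and between 3.91 and 4.17 in the Col-0 arrays. AT5G61290 was at 6.12 and 6.02 in ein3 eil1 mock, and between 3.74 and 4.28 in the 8 arrays of Col-0 and coi1-2. Their changes differed from those of Col-0 by -2.15 ± 0.24 and -1.88 ± 0.25 (limma adjusted p = 0.00143 and 0.0032). AT2G16005 was at 8.70 and 8.72 in ein3 eil1 mock, fell to 5.92 and 7.13 with MeJA, and rose in Col-0 from 4.76 and 4.53 to 6.09 and 6.08, a difference of -3.62 ± 0.41 (adjusted p = 0.00147). The calls of these 3 against Col-0 held without any 1 array.

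ATC, a relative of the flowering inhibitor TFL1, was at 5.66 and 6.27 in ein3 eil1 mock and 7.35 and 7.30 with MeJA (1.36 ± 0.18). In Col-0 it was between 7.20 and 7.36 under both treatments, and in coi1-2 between 5.73 and 6.21, so that ein3 eil1 lay near coi1-2 in mock and near Col-0 with MeJA. The response exceeded that of Col-0 by 1.47 ± 0.25 (limma adjusted p = 0.0131), a call lost without Col-0 MeJA replicate 1 (0.0502) or Col-0 mock replicate 2 (0.0519), and that of coi1-2 by 1.64 ± 0.25 (adjusted p = 0.0146), lost without coi1-2 MeJA replicate 1, MeJA replicate 2 or mock replicate 2 (0.065 to 0.0821). AT3G28270 rose from 6.30 and 7.02 to 8.49 and 8.42, while it lay between 4.17 and 5.24 in the 8 other arrays. Its difference from Col-0 was 1.48 ± 0.29 (adjusted p = 0.0267), lost without 5 of the 8 arrays compared (0.0719 to 0.104).

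**Figure D4:**
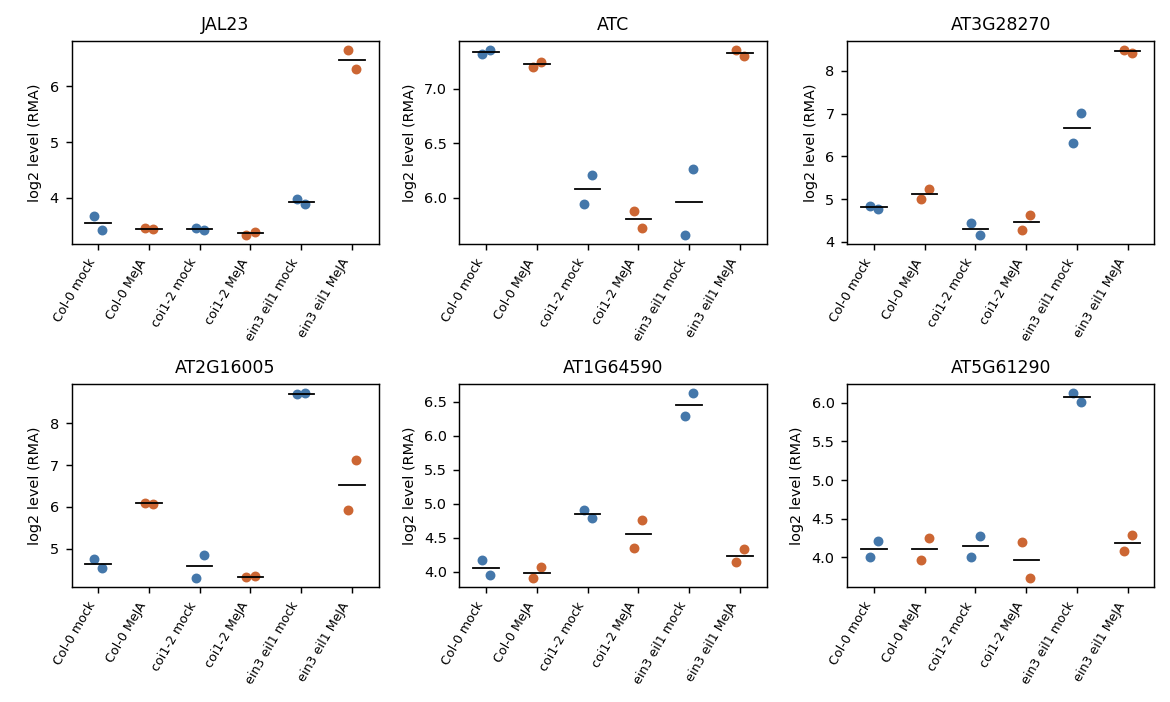
Log2 expression level of 6 genes whose response to MeJA in ein3 eil1 differed from that in Col-0, in all 6 groups (blue mock, orange MeJA, 1 point per array, black line the mean of 2). JAL23 is high in the ein3 eil1 MeJA arrays alone, and AT1G64590 and AT5G61290 are highest in the ein3 eil1 mock arrays. The vertical axes start above 0 and differ between genes.

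UGT76E12 and AT1G09500 rose in all 3 genotypes but by less in ein3 eil1 than in Col-0. In Col-0 UGT76E12 went from 5.36 and 4.52 to 9.75 and 9.43, against 8.04 and 8.20 and then 9.80 and 10.24 in ein3 eil1. AT1G09500 went from 5.10 and 4.70 to 8.63 and 8.39 in Col-0, and from 7.54 and 7.61 to 8.26 and 8.64 in ein3 eil1. The differences were -2.75 ± 0.38 and -2.73 ± 0.26 (limma adjusted p = 0.00355 and 0.000765), and both held without any 1 array. With MeJA the 2 genotypes were close in both genes (0.43 ± 0.27 and -0.06 ± 0.18 for ein3 eil1 minus Col-0, adjusted p = 0.484 and 0.934), while in mock ein3 eil1 was higher by 3.18 ± 0.27 and 2.67 ± 0.18. The mock difference and the difference between responses share the mock arrays. The call that AT1G09500 rose in ein3 eil1 (0.88 ± 0.18, adjusted p = 0.0156) was lost without MeJA replicate 2, mock replicate 1 or mock replicate 2 (0.0712 to 0.127).

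Against coi1-2, AT1G75960 and AT4G17470 had the highest differences among named genes after JAL23. AT4G17470 was between 3.92 and 4.64 in the 4 coi1-2 arrays, and its change in ein3 eil1 exceeded that in coi1-2 by 2.24 ± 0.28 (limma adjusted p = 0.00617). AT1G75960 rose from 3.56 and 3.63 to 4.37 and 4.28 in coi1-2, and the difference was 2.26 ± 0.19 (adjusted p = 0.00042). Both calls held without any 1 array. Against Col-0 neither gene passed (-1.06 and 0.66, adjusted p = 0.0834 and 0.132).

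**Figure D5:**
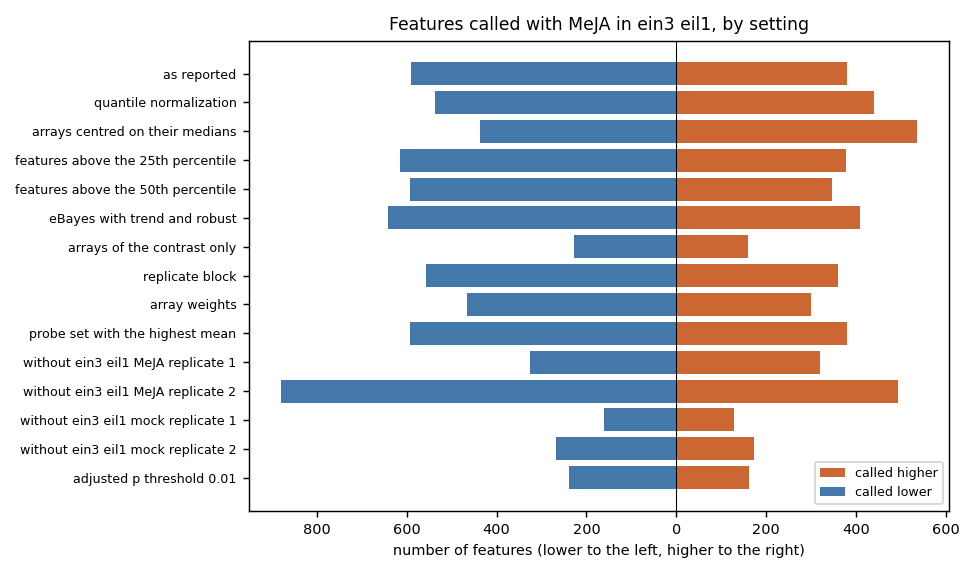
Number of features called higher (orange, to the right) and lower (blue, to the left) with MeJA in ein3 eil1 under each setting, from the fit as reported at the top to a threshold of 0.01 at the bottom. The count ran from 289 without mock replicate 1 to 1373 without MeJA replicate 2, and centring the arrays on their medians gave 537 higher and 436 lower.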

How the data were processed

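RNA of whole Arabidopsis seedlings was measured on 12 Affymetrix ATH1 arrays, 2 for each of 6 groups assigned by the labels. The deposited table holds log2 expression values. The tools named in the submitters' processing notes are RMA, Partek and Affymetrix Expression Console; their versions and the genome build are not given in the sources used here. Because RMA equalises the distributions of the arrays, a shift common to most genes is not visible. Array medians were between 5.22 and 5.39, and the number of arrays limits the precision. The labels' protocols cite a manual for sense-strand labelling, not the usual one for ATH1, and its bearing on the values was not tested.

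The 64 control probe sets were left out. Of 22746 others, 13513 had 1 gene name in the platform annotation, 503 several and 8730 none here, and 13436 matched the TAIR10.1 gene table. Probe sets of the same gene were averaged (146 genes). With limma 3.58.1 (R 4.3.3) the 22589 features were fitted as 6 group means over all 12 arrays (6 residual degrees of freedom, prior 6.24), with Benjamini-Hochberg adjustment over all features and a threshold of 0.05. All adjusted p-values are limma's and two-sided. The fit was also run on simulated data that had the same spread in every group. The real arrays differed in this, with array weights of 0.63 for ein3 eil1 MeJA and 1.30 for ein3 eil1 mock. That run therefore does not vouch for the calls here. Python 3.11.15, pandas 2.3.3 and matplotlib 3.10.9 were used for tables and figures.

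The genes and lists were chosen with earlier results of these data known. Named genes were the 12 highest and 12 lowest called named genes, up to 6 members of each list with the smallest adjusted p and up to 2 that did not pass, called genes with a symbol, and the 6 most positive and 6 most negative differences from each other genotype. Alternatives were other scalings, filters, priors, array weights, a replicate block, the contrast's arrays alone, 1 probe set per gene, a threshold of 0.01, and leaving out each array. The main fit did not pair the arrays by replicate number. Correlations of the replicate differences between groups ran from -0.22 to 0.23, the highest between ein3 eil1 mock and ein3 eil1 MeJA. These values do not settle whether the arrays were paired. A planned description of promoter motifs was not run, since no promoter sequences were used here.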

Additional observations from a re-analysis of the deposited data

Results flagged for a closer look

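The genes below were singled out because their response to MeJA in ein3 eil1 differed from that in Col-0 or coi1-2 by the test of the difference itself (limma adjusted p under 0.05), among the genes named here. Values are the log2 change in ein3 eil1 minus that in the other genotype. No explanation was tested for any of them. Of 37 such differences from Col-0, 9 held when any 1 of the 8 arrays compared was left out and 28 were lost at least once (adjusted p = 0.0502 to 0.18). Of 22 differences from coi1-2, 6 held and 16 were lost at least once (0.0517 to 0.251).

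The differences from Col-0 that held were 3.18 for an unnamed probe set, 2.66 for JAL23, -1.34 for OPCL1, -1.88 for AT5G61290, -2.15 for AT1G64590, -2.27 for AT2G38240, -2.73 for AT1G09500, -2.75 for UGT76E12 and -3.62 for AT2G16005. Those from coi1-2 that held were 3.11 for the same unnamed probe set, 2.63 for JAL23, 2.26 for AT1G75960, 2.24 for AT4G17470, -1.71 for AT1G35330 and -1.92 for AT1G64590.

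Above the Col-0 response but lost without at least 1 array were OSM34 (1.51), AT3G28270 (1.48), ATC (1.47), AT3G07010 (1.31), AT5G45670 (1.3) and GH3.3 (1.08). OSM34 was far lower in ein3 eil1 than in Col-0 under mock (-3.48 ± 0.19), at 6.94 and 7.37 against 10.88 and 10.38. AT5G45670 and AT3G07010 fell in both genotypes, with log2 changes of -2.41 and -2.30 in Col-0 and -1.12 and -0.99 in ein3 eil1, where both calls were lost without mock replicate 1 (adjusted p = 0.0522 and 0.061).

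Below the Col-0 response but lost without at least 1 array were JRG21 (-2.36), AT2G39710 (-2.20), BGLU40 (-1.88), AT5G53990 (-1.71), UGT73B4 (-1.65), AT5G04120 (-1.49), scpl30 (-1.43), UGT76E11 (-1.39), AT1G35330 (-1.27), UPB1 (-1.21) and PRN (-1.20). The same held for AT2G04400 (-1.14), AT5G05600 (-1.13), HIS1-3 (-1.11), PIA1 (-1.10), AT4G17280 (-1.10), JAL33 (-1.09), GAT1_2.1 (-1.02), MSRB6 (-0.98), ZW9 (-0.92), PUB23 (-0.85) and BIK1 (-0.78).

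Above the coi1-2 response but lost without at least 1 array were AT1G54020 (1.99), AT1G31550 (1.91), a second unnamed probe set (1.79), AT3G28220 (1.74), AT3G28270 (1.64), ATC (1.64) and WRKY53 (1.35). WRKY53, a stress and senescence regulator, fell in coi1-2 by 1.70 on the log2 scale and was at -0.35 in ein3 eil1 (adjusted p = 0.266). Below it were AT5G61290 (-1.71), AT5G04120 (-1.70), AT5G53990 (-1.67), AT4G17280 (-1.64), AT5G01740 (-1.38), BCAT4 (-1.34), EXPA7 (-1.26), JAL33 (-1.07) and JAL34 (-0.94). BCAT4 was at 6.33 and 6.59 in coi1-2 mock and 8.35 and 8.44 with MeJA, below its ein3 eil1 values of 10.36 to 11.07.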

How the results depend on the processing

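Each alternative was compared with the fit as reported, and no gene's value that passed the threshold in either of the fits compared changed sign. Of 3376 such comparisons of a gene's value, 34 changed sign. These were for 21 responses to MeJA in ein3 eil1, such as OPCL1 and PDF1.2, that passed in neither fit compared. Alternatives could differ in sign from each other: PDF1.2 was at 1.58 without MeJA replicate 1 and -0.07 without MeJA replicate 2. The heat shock gene ATHSP22.0 was at 0.12 and -1.49. Of the same 3376, 2749 kept their side of the threshold, 597 no longer passed and 30 newly passed. The 969 features called with MeJA in ein3 eil1 became 386 with the 4 arrays of the contrast alone and 400 at a threshold of 0.01, and 289 to 1373 when 1 array was left out, where the lone array of a group is assumed to vary like the others. The 409 differences from the Col-0 response became 213 with the arrays of the contrast alone and 90 at a threshold of 0.01, and 127 to 1040 without 1 array. The 100 differences from the coi1-2 response became 46 among features above the 50th percentile of mean level and 29 at a threshold of 0.01, and 16 to 181 without 1 array. Fewer residual degrees of freedom or fewer features tested are part of the construction of these settings. For the other changes the cause was not tested.

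The replicate number as a block (replicate block) gave 915 calls in ein3 eil1 in place of 969, with 390 differences from Col-0 and 89 from coi1-2. Of the 4 jasmonate breakdown genes 2 passed with the block, as they did with arrays centred on their medians. With the block, 1 UDP-glycosyltransferase of those taken by symbol was called lower. Calls numbered 978 after quantile normalization (441 higher), 973 after centring (537 higher) and 765 with array weights, of which 878, 810 and 759 were shared with the 969 in the same direction. The share of calls that were higher was 39.1% as reported, 45.1% after quantile normalization and 55.2% after centring, and 49.6% without MeJA replicate 1. Precision rests on 2 arrays per group, and 61 of the features called higher had mock levels below the array medians, as 133 of those called lower had with MeJA.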
